A study of Mus musculus with 18 samples.

Results

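White adipocyte transcripts were followed in mouse skin and lung, through 10 genes chosen by symbol: the adipokine genes Lep, Adipoq, Retn and Cfd, the lipid droplet genes Plin1 and Cidec, the fatty acid carrier gene Fabp4, the receptor gene Adrb3, and the enzyme genes Lipe and Car3. Each of the 10 symbols matched 1 row of the 55401 genes listed in each tissue's table, and all 10 passed the filter on low counts in both tissues, where 16956 genes were tested in skin and 17272 in lung. The series holds 18 RNA-seq libraries from female wild-type (WT) mice, 9 from each tissue. La-Cer mice received 4 nmol calcipotriol (the vitamin D analogue also known as MC903) and 50 μg ovalbumin together with an emollient containing linoleic acid-ceramide, over 28 days. AD mice, an atopic dermatitis model, received the same calcipotriol and ovalbumin without the emollient, and control mice were untreated. Each group had 3 mice per tissue, and the series asks how the emollient bears on dermatitis and on later airway disease. The model is induced by these agents and not by a genetic lesion, and no vehicle or emollient-only group was analysed here. Some sample codes are alike between skin and lung, but the labels do not state that they mark the same mouse. The libraries were therefore treated as separate samples, and any pairing by mouse was left out of the tests.

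White adipocytes store triglyceride in a single large droplet. Plin1 coats the droplet and holds lipases back until catecholamines act, in mice largely through the beta-3 adrenergic receptor, and Cidec drives droplet growth. Lipe, hormone-sensitive lipase, cuts diacylglycerol, and Fabp4 carries the fatty acids inside the cell. The same cells secrete leptin, which reports fat stores to the brain, adiponectin, resistin (made by adipocytes in mice) and adipsin, the factor D protease of the alternative complement pathway. In skin they form the dermal white fat layer around the hair follicles; in the chest, fat lies around the mediastinum rather than in the lung itself, and mouse mediastinal fat can be brown.

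Library totals ran from 13472283 to 19338972 counts. The labelled tissues held against their markers: the alveolar surfactant gene Sftpc stood at 13953 to 38652 counts per 1000000 counts (CPM, library totals scaled by TMM factors) in the lung libraries and at 0.539 to 15 CPM in the skin libraries, and the basal keratin Krt14 at 0.395 to 5.99 CPM in lung and 2118 to 10258 CPM in skin. A lung library of the AD group, replicate 1, stood apart for fat: it held 4 Adipoq counts, 5 Retn counts, 7 Cfd counts, 9 Plin1 counts and 1 Lep count. Lung control replicate 1 stood at the other end, with 119 CPM of Adipoq and 2384 CPM of Fabp4. Lung medians, and the values that these libraries moved most, are therefore also given without them. In bulk tissue, fewer fat cells and less RNA per fat cell cannot be told apart.

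The 250 bases upstream of the RefSeq start are shown for 3 adipokine genes, because Lep, called lower in AD skin, did not follow Adipoq there, while Retn, estimated higher, did. Promoters of 7 of the 10 members were matched in the RefSeq table (GRCm38.p6); Adrb3, Fabp4 and Car3 were not matched. Capitals mark matches on either strand to TTGCNNAA, the C/EBP motif, or to CCAAT, the CCAAT box.
Lep, chr6:29059971-29060220, plus strand: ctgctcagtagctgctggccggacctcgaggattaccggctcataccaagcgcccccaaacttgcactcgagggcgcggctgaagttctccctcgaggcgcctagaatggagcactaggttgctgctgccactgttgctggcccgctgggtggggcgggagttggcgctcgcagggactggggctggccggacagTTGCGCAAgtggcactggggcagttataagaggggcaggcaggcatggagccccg
Adipoq, chr16:23146286-23146535, plus strand: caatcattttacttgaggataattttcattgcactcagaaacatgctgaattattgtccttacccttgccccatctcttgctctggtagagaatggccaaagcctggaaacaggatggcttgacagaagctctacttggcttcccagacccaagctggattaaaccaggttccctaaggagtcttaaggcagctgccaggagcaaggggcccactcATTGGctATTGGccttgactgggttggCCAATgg
Retn, chr8:3655520-3655769, plus strand: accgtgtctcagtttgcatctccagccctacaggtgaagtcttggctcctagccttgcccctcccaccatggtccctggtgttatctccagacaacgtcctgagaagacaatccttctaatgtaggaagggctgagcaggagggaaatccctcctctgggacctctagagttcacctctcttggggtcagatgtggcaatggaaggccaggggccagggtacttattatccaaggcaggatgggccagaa
The Lep window held 1 TTGCNNAA match, 55 bases before the start (position -55), and the Adipoq window held 3 CCAAT matches, starting at -34, -27 and -7. The Retn window held neither. Over 32851 promoters of the same length, TTGCNNAA was found in 9.56% and CCAAT in 33.8%. TATAAA, found in 12.4% of all promoters, AGGTCA, a nuclear receptor motif found in 14%, and the PPAR-RXR direct repeat, found in 0.0335%, had no match in these 3 windows. These matches describe letters in a window and are not binding sites.

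In skin the leptin gene was the only member that passed the test between AD and control mice. Lep fell in AD skin, whereas the resistin gene stood above every control library without passing, and the droplet and lipolysis genes overlapped between the groups. Of the 10 members 1 was called, which is lower in AD, against 6.86% of all genes tested in either direction and 3.44% called lower. The median log2 difference of the members was 0.13, beside -0.05 over all genes. Of the members 5 were above 0, against 48% of all genes tested. Calls in this comparison depended on single libraries: edgeR called 1163 genes with all libraries, 0 genes without AD replicate 1 or 2, control replicate 1 or 2 or La-Cer replicate 3, 2 genes without AD replicate 3, and 535 without control replicate 3.

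Lep lies on chromosome 6 from 29060220 to 29073877 (GRCm38, plus strand), with 3354 exonic bases. It had 8.81, 6.23 and 6.51 CPM in AD skin, against 45.4, 32.0 and 10.6 CPM in control skin. The groups did not overlap, and control replicate 3 lay close to the AD libraries while the other control libraries were well above. The means were 7.18 ± 1.42 CPM in AD skin and 29.3 ± 17.5 CPM in control skin (SD, n = 3 each), a log2 fold change of -2.03 ± 0.51 (SE; adjusted p = 0.0457, edgeR quasi-likelihood test with Benjamini-Hochberg adjustment over all genes tested). The call is close to the threshold: it was lost without control replicate 1 (adjusted p = 0.179, log2 fold change -1.58, edgeR), control replicate 2 (0.117), AD replicate 1 (0.0781), AD replicate 2 (0.0939), AD replicate 3 (0.125) or La-Cer replicate 3 (0.0565). It was also lost with the trend on transcript length and GC content removed (adjusted p = 0.0693, edgeR), while the log2 fold change was then -2.13, and with only the 6 AD and control libraries in the fit (0.0621). A block for the replicate number, which did not pair the samples, lost the call as well (adjusted p = 0.108, edgeR). Over the 15 alternatives the adjusted p ran from 0.00196 to 0.179, and the log2 fold change stayed below 0 in each of them.

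Retn lies on chromosome 8 from 3655770 to 3660110 (plus strand). It had 296, 80.3 and 321 CPM in AD skin, against 59.6, 57.7 and 51.8 CPM in control skin. Every AD library was above every control library, the control libraries lay close together, and AD replicate 2 was far below the other AD libraries. The log2 fold change was 2.05 ± 0.70 and did not pass the test (adjusted p = 0.0938, edgeR), with adjusted p from 0.0155 to 0.235 over its 15 alternatives. DESeq2 called it (adjusted p = 0.0155), as did the edgeR test without La-Cer replicate 1 (adjusted p = 0.0468). Lep and Retn were the 2 members of 10 whose AD and control libraries did not overlap in skin, against 34.5% of all genes tested.

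The other adipokine genes overlapped. Adipoq, on chromosome 16 from 23146536 to 23158028, had 108, 39.7 and 140.3 CPM in AD skin, against 98.3, 61.6 and 54.4 CPM in control skin. AD replicate 2 was the lowest of the 6 libraries and AD replicate 3 the highest. Its log2 fold change was 0.42 ± 0.53 (adjusted p = 0.629, edgeR), and it turned to -0.29 with the length and GC trend removed. Cfd, on chromosome 10 from 79890853 to 79892655, had 1909, 276 and 1135 CPM in AD skin, against 524, 529.7 and 313 CPM in control skin. As for Retn, AD replicate 2 lay far below the other AD libraries, and here it was also below the control libraries. The log2 fold change was 1.28 ± 0.70 (adjusted p = 0.249, edgeR).

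The storage and lipolysis genes did not separate in skin. Fabp4 averaged 1569.6 ± 918 CPM in AD skin and 785 ± 247 CPM in control skin (SD, n = 3 each), with a log2 fold change of 1.0 ± 0.55 (adjusted p = 0.252, edgeR). Cidec averaged 164 ± 103 CPM in AD skin and 119 ± 34.6 CPM in control skin. Plin1 averaged 49.1 ± 33.3 CPM in AD skin and 54.8 ± 28.1 CPM in control skin. Their log2 fold changes were 0.47 and -0.16, and the AD and control libraries overlapped for both. Lipe averaged 76.2 ± 51.7 CPM in AD skin and 94.9 ± 30.1 CPM in control skin, and Adrb3, the lipolytic receptor, 5.89 ± 4.08 CPM in AD skin and 9.61 ± 3.06 CPM in control skin. Part of each of these loci lies opposite an antisense gene: 839 of 3376 exonic bases of Adrb3 (24.9%) opposite Gm45470 and 918 of 5886 of Lipe (15.6%) opposite 4732471J01Rik. The labels do not say whether counting used strand, and reads in those stretches cannot be told apart.

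Car3, carbonic anhydrase 3, is abundant in adipocytes and also in slow skeletal muscle fibres. It had 1283, 1687 and 360.2 CPM in AD skin, against 1273, 1150.4 and 3024 CPM in control skin, with control replicate 3 the highest and AD replicate 3 the lowest library. Its level moved with muscle transcripts across the 9 skin libraries: with the summed skeletal muscle list, Pearson's r was 0.89 (exact permutation p = 0.000604, adjusted p = 0.00393 over the 26 relations computed) and Spearman's rho 0.95 (p = 0.000353), and r was 0.70 over the 7 libraries left without those farthest from the median. The same gene showed no relation to Adipoq there (r = 0.04, exact permutation p = 0.916; rho = 0.05, p = 0.912; r = 0.46 over the 7 libraries left). The muscle list of 12 genes, none at 0 in all libraries, summed to 11663 to 46875 CPM in AD skin and 17813 to 62339 CPM in control skin. Its part in the Car3 values was not tested beyond this.

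Some other markers differed between AD and control skin beside the Lep and Retn values, and others did not. The sebaceous gland list (4 of 7 genes called higher, 3.42% of all genes called higher) summed to 675 to 1971 CPM in AD skin and 145 to 246 CPM in control skin. Of 3 nuclear-retained RNAs 2 were called lower in AD skin, Malat1 and Xist, and Neat1 was not called. Their log2 fold changes were -2.32 ± 0.49 for Malat1 and -2.22 ± 0.48 for Xist (adjusted p = 0.0413 and 0.0417, edgeR). The list summed to 1137 to 2250.1 CPM in AD skin and 2177 to 2743 CPM in control skin, with overlap. The calls were lost in 9 of 15 alternatives for Malat1 and Xist, and in 8, 9 and 10 for the sebaceous genes Dgat2l6, Elovl3 and Cidea. Adipocyte progenitor markers (0 of 7 called) summed to 365 to 434 CPM in AD skin and 182 to 341 CPM in control skin, without overlap. Endothelial markers (0 of 9 called) summed to 109 to 129 CPM in AD skin, within the 91.1 to 142 CPM of control skin. Hair follicle markers (0 of 10 tested genes called) varied widely, at 248 to 4004 CPM in AD skin and 339 to 15646 CPM in control skin. Their lowest libraries were AD replicate 2 and control replicate 3. The part of these in the Lep and Retn values was not tested.

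**Figure D1:**
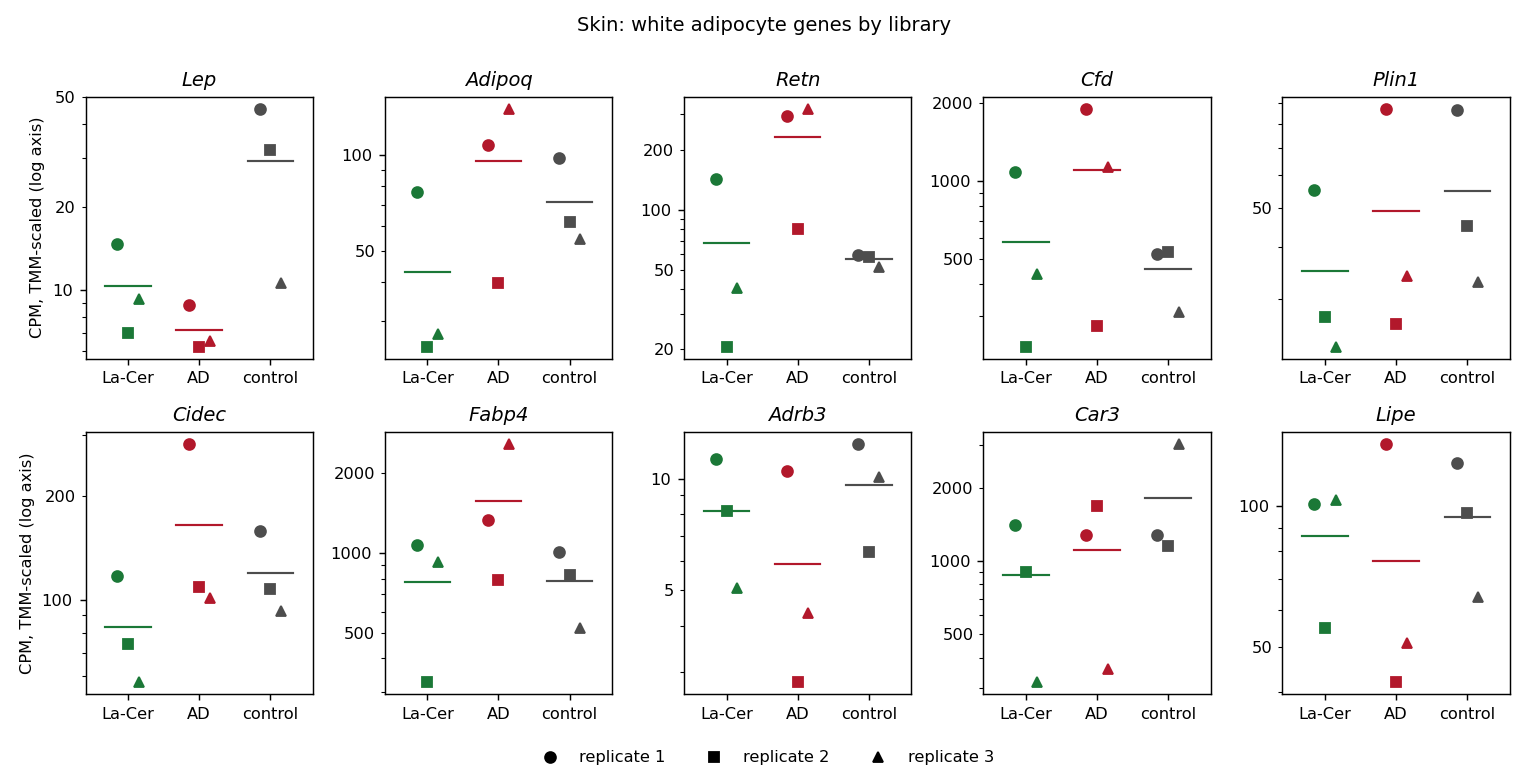
Level of each member in the 9 skin libraries, in TMM-scaled CPM on log axes, for La-Cer, AD and control mice from left to right; points are libraries, shaped by replicate number, and bars are group means. For Lep the AD libraries (6.23 to 8.81 CPM) lie below the control libraries (10.6 to 45.4 CPM), and for Retn the AD libraries (80.3 to 321 CPM) lie above them (51.8 to 59.6 CPM).

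Compared per length, the members kept a wide range of levels within skin. In the authors' deposited FPKM values the AD means were 1089 ± 810.2 for Cfd, 348 ± 210.5 for Car3 and 316 ± 187 for Fabp4, and they were 1.93 ± 0.399 for Lep and 1.58 ± 1.11 for Adrb3 (SD, n = 3). In control skin the FPKM means were 534 ± 179 for Cfd, 655 ± 318 for Car3, 189.8 ± 73.6 for Fabp4, 9.63 ± 6.27 for Lep and 3.05 ± 1.11 for Adrb3. By these values Cfd and Car3 exchanged the top places between the groups, within SDs that overlap, and Lep and Adrb3 were the lowest in both. The exonic size used for Fabp4, 4489 bases, covers its whole locus from 10204088 to 10208576. The place of Fabp4 below Cfd and Car3 depends on that size and was not tested with another. Retn had a higher mean FPKM than Cidec and Adipoq in AD skin (133 ± 76.7, against 80.0 ± 50.9 and 62.8 ± 34.0) and a lower one in control skin (38.2 ± 5.94, against 69.3 ± 25.7 and 56.0 ± 22.9).

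With the emollient, the members of the skin were mostly lower than in AD skin, and none passed the test. Of the 10 members 0 were called between La-Cer and AD skin, where 0% of all genes were called by edgeR, 3198 genes had an unadjusted p under 0.05 and DESeq2 called 984 genes. The median log2 difference of the members was -0.71, beside 0.02 over all genes, and 7 members were below 0, against 49.3% of all genes tested. La-Cer and AD libraries overlapped for all 10 members, while the groups did not overlap for 22.5% of all genes tested.

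Retn had 143, 20.6 and 40.6 CPM in La-Cer skin, against 296, 80.3 and 321 CPM in AD skin. La-Cer replicate 1 was above AD replicate 2, and the other La-Cer libraries were below all AD libraries. The log2 fold change was -1.77 ± 0.69 (adjusted p = 0.222, edgeR). Adipoq had 76.4, 25 and 27.3 CPM in La-Cer skin, against 108, 39.7 and 140.3 CPM in AD skin. La-Cer replicate 1 was above AD replicate 2, and the log2 fold change was -1.16 ± 0.54 (adjusted p = 0.277, edgeR). Lep went the other way, with 14.7, 6.95 and 9.27 CPM in La-Cer skin and 6.23 to 8.81 CPM in AD skin, overlapping in range, and a log2 fold change of 0.52 ± 0.50 (adjusted p = 0.593, edgeR).

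Against untreated skin, La-Cer skin had a lower Lep estimate that did not pass. The log2 fold change was -1.51 ± 0.50 (unadjusted p = 0.0121, adjusted p = 0.836, edgeR), and La-Cer replicate 1 was above control replicate 3. None of the 10 members was called, with 0% of all genes called by edgeR, 968 genes at an unadjusted p under 0.05 and 67 called by DESeq2. Retn was 68.2 ± 65.9 CPM in La-Cer skin and 56.3 ± 4.06 CPM in control skin (SD, n = 3 each; log2 fold change 0.27 ± 0.68). The La-Cer mean of Retn rests on replicate 1, the only La-Cer library above the control libraries. The median log2 difference of the members was -0.38, beside -0.05 over all genes.

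Lep and Adipoq are both made by fat cells, and they were compared as a ratio within each library. The log2 ratio of Lep to Adipoq (each as CPM + 0.5) was -2.34, -1.78 and -1.51 in La-Cer skin. It was -3.54, -2.58 and -4.33 in AD skin and -1.11, -0.94 and -2.31 in control skin. Every AD library was below every La-Cer and every control library, while La-Cer and control libraries overlapped. The mean was lower by 2.03 in AD than in control skin, a difference of -2.03 (exact two-sided permutation test, p = 0.1, the smallest that 3 against 3 allows). Between La-Cer and AD skin the difference was 1.61 (exact p = 0.1), and between La-Cer and control skin it was -0.43 (exact p = 0.4). Adjusted over the 6 comparisons made, the exact p was 0.2 for both differences that involve AD skin, so neither passed, and these comparisons share the AD libraries.

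In lung the same log2 ratio was -3.49, -3.08 and -3.26 in La-Cer lung, -0.40, -2.90 and -1.40 in AD lung, and -5.07, -2.94 and -1.58 in control lung. AD and control lung overlapped (difference 1.63, exact permutation p = 0.2), and AD lung lay above La-Cer lung (La-Cer minus AD -1.71, exact p = 0.1, adjusted 0.2). The ratio of AD replicate 1 rests on 1 Lep and 4 Adipoq counts, or 0.0597 CPM of Lep and 0.239 CPM of Adipoq, both below the 0.5 CPM added to each gene.

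Some members followed Adipoq across the skin libraries and others, Lep among them, did not. Across the 9 skin libraries Adipoq was related to Retn with Pearson's r = 0.84 (exact permutation p = 0.00591, adjusted p = 0.0154; Spearman's rho = 0.87, p = 0.00451; r = 0.65 over the 7 libraries left without those farthest from the Adipoq median). With Cfd r was 0.79 (exact permutation p = 0.0122, adjusted p = 0.0227; rho = 0.88, p = 0.00308; 0.68 over the 7 left), and with Fabp4 0.79 (exact permutation p = 0.00901, adjusted p = 0.018; rho = 0.87, p = 0.00451; 0.48 over the 7 left). Plin1 and Cidec stood at r = 0.72 and 0.71. Lep was not related to Adipoq in skin (r = 0.29, exact permutation p = 0.451; rho = 0.17, p = 0.678; 0.48 over the 7 left), nor did Adrb3 (r = 0.28) and Lipe (r = 0.31) pass. These relations pool 3 groups.

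**Figure D2:**
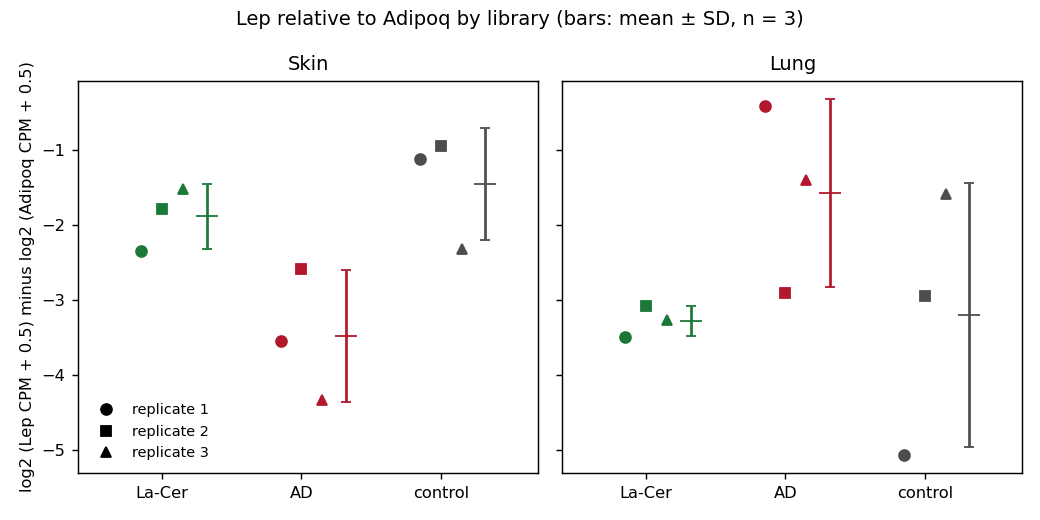
Log2 ratio of Lep to Adipoq in each library of skin (left) and lung (right), each gene as CPM + 0.5, for La-Cer, AD and control mice from left to right; bars are the mean ± SD of 3 libraries. In skin the AD libraries (-4.33 to -2.58) lie below the La-Cer (-2.34 to -1.51) and control libraries (-2.31 to -0.94).

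Genes of the same pathways were counted in skin, where 3.42% of all genes tested were called higher and 3.44% lower. Between AD and control skin, 2 of 15 genes of lipid droplets and lipolysis passed, both higher: Plin2, a droplet coat protein of many cell types, at 450.3 ± 48.4 CPM in AD skin and 94.4 ± 3.75 CPM in control skin (log2 fold change 2.25), and Cidea, a droplet protein of brown fat and sebaceous glands (3.09). Of 19 genes of fatty acid uptake and triglyceride synthesis 1 passed, Me1, which supplies NADPH (log2 fold change 1.90), and of 10 tested further adipokines 1, Nampt (1.39). Of 6 adipokine receptor genes 1 passed, and it was lower: Cmklr1, the chemerin receptor, averaged 2.88 ± 0.93 CPM in AD skin and 10.2 ± 3.59 CPM in control skin (log2 fold change -1.82; adjusted p = 0.0436, edgeR). The calls of these 5 genes were each lost in 8 to 10 of the 15 alternatives. None of 11 adipogenic regulators, 7 further genes of the alternative complement pathway and 7 progenitor genes passed, with Rxra at -0.07 and Cebpa at 0.14 on the log2 scale. The regulator list had a median log2 difference of 0.39 and the synthesis list 0.85, beside -0.05 over all genes. Of the 11 regulators 4 had an unadjusted p under 0.05 (edgeR), as did 4895 of the 16956 genes tested. Their list summed to 990.3 to 1080.2 CPM in AD skin and 755 to 913 CPM in control skin, without overlap. The brown fat list passed through Cidea and Elovl3 (2 of 9 tested), which the sebaceous list also holds, while Ucp1, the defining brown fat gene, was at 0 to 0.122 CPM in AD skin and 0 to 0.37 CPM in control skin. Between La-Cer and AD skin and between La-Cer and control skin edgeR called 0% of all genes tested. None of these lists could therefore hold a called gene there.

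In lung every member had a lower estimate in AD than in control mice. None of the 10 was called by edgeR, where 0.0463% of all genes tested were called, and 7 of the 10 had an unadjusted p under 0.05, as did 3607 of the 17272 genes tested. All 10 log2 differences were below 0, against 49.4% of all genes, with a median of -2.33 beside 0.01 over all genes. DESeq2 called 3 of the 10, which are Adrb3 (adjusted p = 0.0157), Car3 (0.0308) and Lep (0.0461). Without AD replicate 1 the median was -1.79 and without control replicate 1 it was -1.45, with all 10 below 0 in both cases and none called by edgeR. Leaving out control replicate 1 gave 992 genes called in place of 8.

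Adipoq had 0.239, 16.5 and 1.86 CPM in AD lung, against 119, 28.9 and 14.5 CPM in control lung. AD replicate 2 was above control replicate 3, and the other AD libraries were below all control libraries. The log2 fold change was -3.12 ± 1.18 (adjusted p = 0.191, edgeR). It was -1.79 without control replicate 1 and -5.66 without AD replicate 2. Fabp4, which capillary endothelium also expresses, had 10.3, 437 and 45.6 CPM in AD lung, against 2384, 439 and 142 CPM in control lung, in the same order of libraries within each group. Plin1 had 0.537, 29.9 and 2.03 CPM in AD lung, against 76.9, 47.7 and 17.3 CPM in control lung, again with only AD replicate 2 above a control library. Without control replicate 1 the log2 fold change was -0.81 for Fabp4, in place of -2.59, -1.32 for Retn, in place of -2.39, and -0.93 for Cidec, in place of -1.64; for Plin1 it was -1.57 without either control replicate 1 or AD replicate 1. Without AD replicate 2 it was -5.14 for Fabp4, -5.19 for Plin1 and -2.67 for Cidec.

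Lep, Cfd, Adrb3 and Car3 did not overlap between AD and control lung, 4 of 10 members, all lower in AD, against 12% of all genes tested that were lower without overlap. Lep had 0.0597, 1.78 and 0.395 CPM in AD lung, against 3.07, 3.31 and 4.53 CPM in control lung. The control libraries lay close together, unlike those of Adipoq, and the log2 fold change was -2.27 ± 0.80 (adjusted p = 0.171, edgeR; -3.94 without AD replicate 2). Cfd had 0.418, 44.0 and 14.2 CPM in AD lung, against 273, 54.0 and 71.3 CPM in control lung (log2 fold change -2.76 ± 1.15, adjusted p = 0.218, edgeR; -1.66 without control replicate 1 and -4.18 without AD replicate 2). AD replicate 2 lay near control replicate 2, and AD replicate 1 was almost without Cfd.

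Adrb3, on chromosome 8 from 27225776 to 27250616, had 9.91, 12.3 and 9.21 CPM in AD lung, against 20.6, 24.5 and 13.9 CPM in control lung. It kept a level of several CPM in AD replicate 1, where Adipoq was at 0.239 CPM, and its log2 fold change was the smallest but for Lipe, at -0.91 ± 0.24 (adjusted p = 0.114, edgeR). Gm45470, the antisense neighbour, was at 1.25 to 4.02 CPM in AD lung and 2.17 to 3.37 CPM in control lung. Car3 had 0.776, 46.2 and 30.2 CPM in AD lung, against 405, 231 and 144 CPM in control lung, which gives the lowest estimate of the 10 at -3.34 ± 0.99 (adjusted p = 0.133, edgeR). Every AD library was below every control library by a wide margin. Across the 9 lung libraries Car3 was related to the summed skeletal muscle list with r = 0.80 (exact permutation p = 0.00794, adjusted p = 0.018; rho = 0.63, p = 0.076; 0.62 over the 7 libraries left). With the cardiac list r was 0.89 (exact permutation p = 0.0171, adjusted p = 0.0296; rho = 0.52, p = 0.162), but 0.10 over the 7 left, so that relation rests on the 2 libraries left out.

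Over all 9 lung libraries Lipe did not follow Adipoq (Pearson's r = -0.02). Without AD replicate 1 and control replicate 1 the r was 0.91 over the 7 libraries left. Lipe had 151, 87.0 and 45.6 CPM in AD lung, against 90.7, 124 and 87.4 CPM in control lung. Its highest library was AD replicate 1, the library with the least Adipoq. The log2 fold change was -0.09 ± 0.37 (adjusted p = 0.906, edgeR), and without AD replicate 1 it was -0.61. The antisense neighbour 4732471J01Rik stood at 1.47 to 1.9 CPM in AD lung and 0.245 to 1.68 CPM in control lung. Its level stayed at 45.6 CPM or more in all 9 lung libraries, while Adipoq ranged from 0.239 to 119 CPM.

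**Figure D3:**
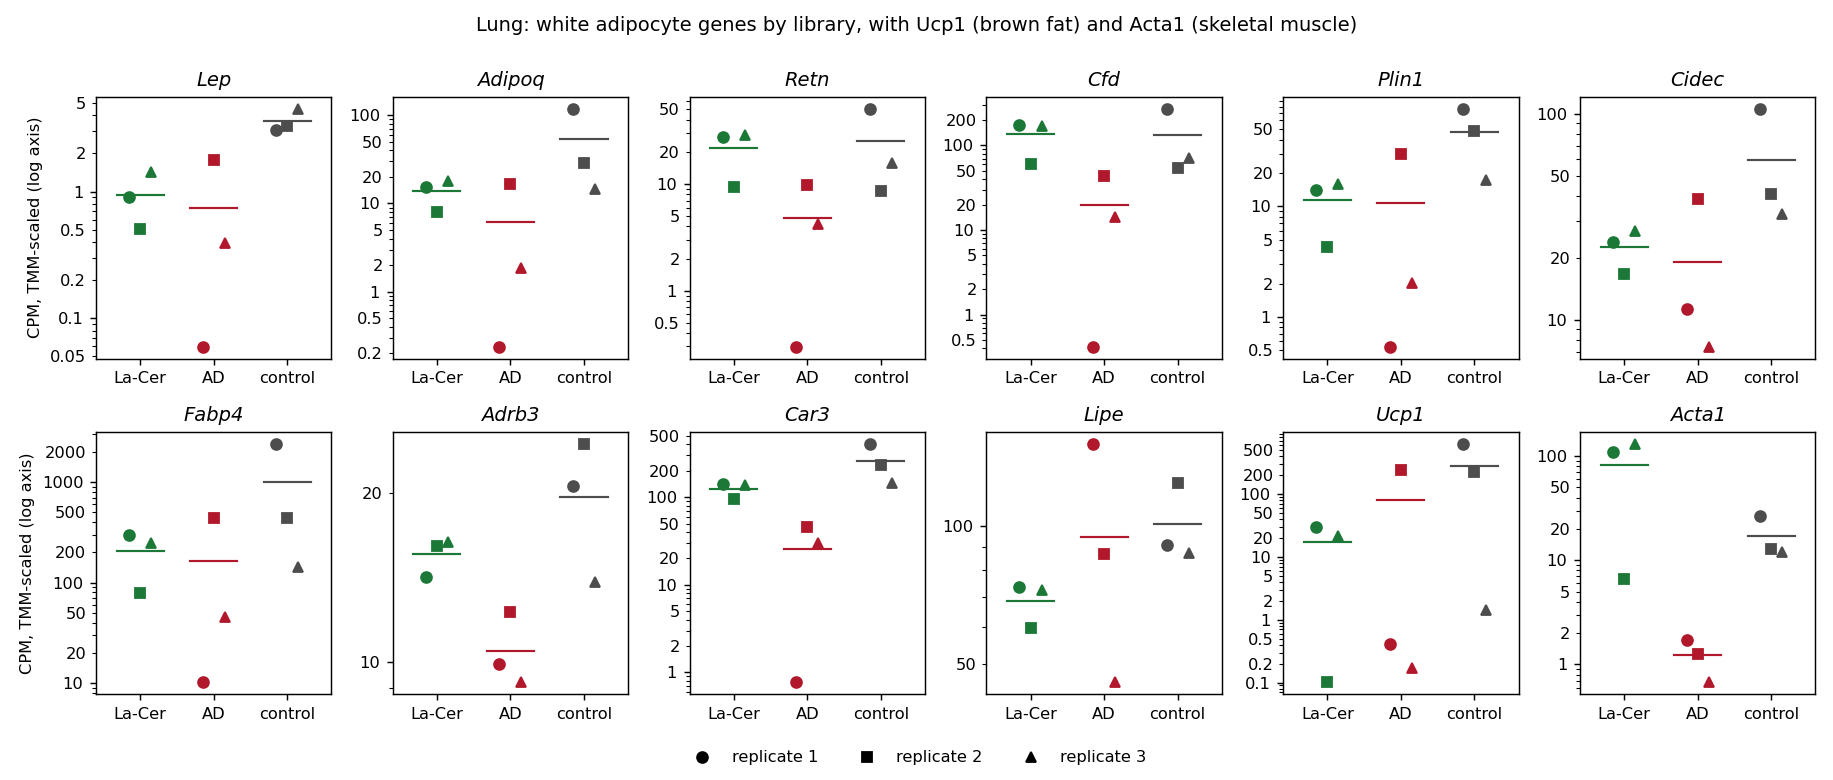
Level of each member in the 9 lung libraries, in TMM-scaled CPM on log axes, with Ucp1 as the brown fat marker and Acta1 as the skeletal muscle marker, for La-Cer, AD and control mice from left to right; points are libraries and bars are group means. Adipoq runs from 0.239 CPM in AD replicate 1 to 119 CPM in control replicate 1, while Lipe stays between 45.6 and 151 CPM.

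Most members moved together from library to library in lung. Across the 9 lung libraries, on log2(CPM + 0.5) values, Adipoq was related to Fabp4 with Pearson's r = 0.98 (exact permutation p = 3.58e-05, adjusted p = 0.000465 over the 26 relations computed; Spearman's rho = 0.95, p = 0.000353; r = 0.90 over the 7 libraries left without those farthest from the Adipoq median). With Plin1 r was 0.96 (exact permutation p = 2.76e-05, adjusted p = 0.000465; rho = 0.92, p = 0.00131; 0.93 over the 7 left). For Lep, Retn, Cfd, Cidec, Adrb3 and Car3 the r with Adipoq was between 0.81 and 0.91, each with an adjusted exact permutation p of 0.018 or less. Lipe was the exception, with r = -0.02 (exact permutation p = 0.958; rho = 0.23, p = 0.552), and r = 0.91 over the 7 libraries left, so its lack of relation rests on AD replicate 1 and control replicate 1. Fabp4 had no relation to the summed endothelial list in lung (r = 0.03, exact permutation p = 0.945; rho = 0.08, p = 0.843; -0.28 over the 7 left). In skin the same relation had r = 0.71 (exact permutation p = 0.0448, adjusted p = 0.0647; rho = 0.52, p = 0.162; 0.44 over the 7 left) and did not pass after adjustment. The groups hold 3 libraries each, too few for a correlation within groups.

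Brown fat transcripts were present in some lung libraries and nearly absent in others. Ucp1, the uncoupling protein that defines brown fat, had 552, 2 and 407 counts in La-Cer lung, 7, 4119 and 3 counts in AD lung, and 10194, 3935 and 24 counts in control lung. High and nearly empty libraries occurred in both AD and control lung. Ucp1 was related to Adipoq with r = 0.80 (exact permutation p = 0.00264; rho = 0.85, p = 0.00607; r = 0.76 over the 7 left). La-Cer replicate 2 had 8.08 CPM of Adipoq with 0.102 CPM of Ucp1, and control replicate 3 had 14.5 CPM of Adipoq with 1.45 CPM of Ucp1. The proportion of Ucp1 to Adipoq thus differed widely between libraries. The brown fat list of 11 genes, none at 0 in all libraries, summed to 104 to 468 CPM in AD lung and 181 to 1272 CPM in control lung.

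Summed markers of other cell types also differed between these libraries. The skeletal muscle list (0 of 12 called) summed to 17.2 to 93 CPM in AD lung and 108 to 288 CPM in control lung, without overlap, and the mesothelial list (0 of 4 called) to 109 to 305 CPM in AD lung and 357 to 472 CPM in control lung. The cardiac muscle list summed to 115 to 2430.2 CPM in AD lung and 1630.4 to 2905 CPM in control lung. The nuclear RNA list (0 of 3 called) summed to 3353 to 6282 CPM in AD lung and 821 to 2807 CPM in control lung, without overlap; the lung log2 fold change of Malat1 was 1.11 (adjusted p = 0.387, edgeR), and its difference from skin was -3.35 (adjusted p = 0.0234, edgeR interaction test). Macrophage markers (0 of 8 called) summed to 330.5 to 958 CPM in AD lung and 245 to 263 CPM in control lung, also without overlap. How much fat was taken with each lung cannot be told apart from a change in the fat cells, and the part of these markers was not tested. Of the pathway lists, 0 of 15 droplet and lipolysis genes, 0 of 19 uptake and synthesis genes and 0 of 11 regulators were called in AD lung, with median log2 differences of -0.53, -0.49 and -0.17.

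**Figure D4:**
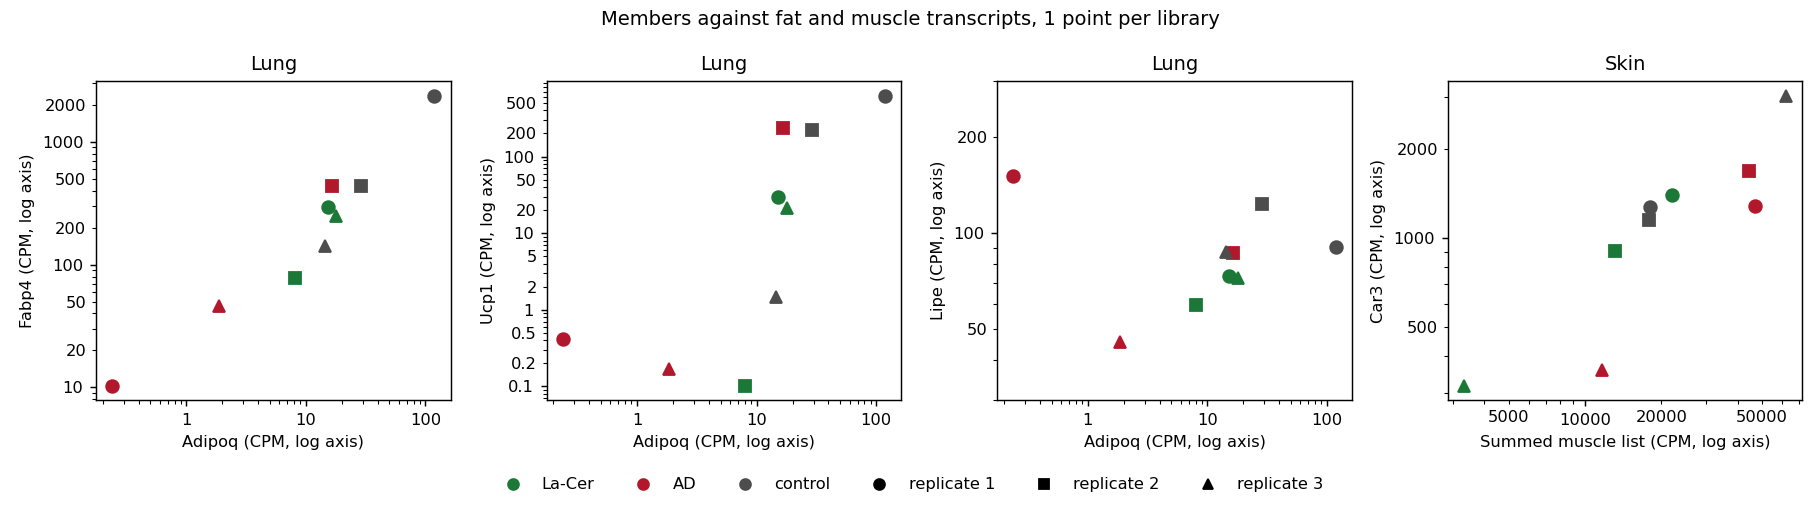
Lung levels of Fabp4, Ucp1 and Lipe against Adipoq, and skin levels of Car3 against the summed skeletal muscle list, in TMM-scaled CPM on log axes with 1 point per library, coloured by group and shaped by replicate. Fabp4 follows Adipoq closely (r = 0.98), and Car3 in skin follows muscle (r = 0.89). Lipe does not follow Adipoq over all 9 libraries (r = -0.02), with AD replicate 1 at 151 CPM. Without AD replicate 1 and control replicate 1 its r is 0.91.

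With the emollient, 9 of the 10 members had higher estimates in La-Cer than in AD lung, against 48.2% of all genes tested, and none was called, where 1.91% of all genes tested were called. The median log2 difference was 0.45, beside -0.03 over all genes. Cfd, Adrb3 and Car3 were higher in every La-Cer than in every AD library, 3 of 10 members, against 22.5% of all genes tested that were higher without overlap. Cfd had 176, 60.7 and 169 CPM in La-Cer lung, against 0.418, 44.0 and 14.2 CPM in AD lung, a log2 fold change of 2.79 ± 1.16 (adjusted p = 0.17, edgeR). Car3 had 141, 95.1 and 137 CPM in La-Cer lung, against 0.776, 46.2 and 30.2 CPM in AD lung, a log2 fold change of 2.27 ± 0.95 (adjusted p = 0.174, edgeR). Retn had 27.7, 9.46 and 28.5 CPM in La-Cer lung, against 0.299, 9.77 and 4.24 CPM in AD lung (2.20 ± 0.96, adjusted p = 0.189, edgeR), with La-Cer replicate 2 just below AD replicate 2. Fabp4, Plin1, Cidec and Lep had log2 fold changes between 0.07 and 0.34. Without AD replicate 1 these 4 ranged from -0.48 to -0.03, and the median of the members was 0.30. That library was not the only setting to turn them. Over the 15 alternatives the direction was reversed in 5 for Plin1, 3 for Fabp4, 3 for Cidec and 2 for Lep. Summed markers of other cell types differed without overlap beside them: mesothelium at 328 to 426 CPM in La-Cer lung and 109 to 305 CPM in AD lung, alveolar epithelium at 33546 to 37594 CPM in La-Cer lung and 23849 to 28555 CPM in AD lung, macrophages at 224 to 329.8 CPM in La-Cer lung and 330.5 to 958 CPM in AD lung, and nuclear RNA at 1501 to 2589 CPM in La-Cer lung and 3353 to 6282 CPM in AD lung. None of the genes in these 4 lists was called by edgeR. Adipocyte progenitor markers (0 of 6 tested genes called) also did not overlap, and were lower, at 1171 to 1250.3 CPM in La-Cer lung and 1352 to 1519 CPM in AD lung. Hair follicle markers, with 0 genes tested, were at 1.54 to 2.4 CPM in La-Cer lung and 0.119 to 0.565 CPM in AD lung. Skeletal muscle summed to 127 to 539 CPM in La-Cer lung and 17.2 to 93 CPM in AD lung. The part of these markers was not tested. Of the 12 muscle genes 2 were called: Acta1 had 110.2, 6.59 and 131 CPM in La-Cer lung, against 1.73, 1.26 and 0.678 CPM in AD lung (log2 fold change 6.07), and Atp2a1 was higher by 3.02. Neither Acta1 (adjusted p = 0.0966, edgeR) nor Atp2a1 (0.123) was called without AD replicate 1. That library was not the only one they depended on, as each of the 2 calls was lost in 9 of the 15 alternatives.

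Against untreated lung, La-Cer lung was lower without overlap for Lep, Plin1, Cidec, Car3 and Lipe, 5 of 10 members, against 5.69% of all genes tested. None of these members was called, where 0.0347% of all genes were called, and each had an adjusted p of 0.999 (edgeR). Lep had 0.903, 0.511 and 1.43 CPM in La-Cer lung, against 3.07, 3.31 and 4.53 CPM in control lung, a log2 fold change of -1.93 ± 0.78 (unadjusted p = 0.0328). Plin1 had 14, 4.29 and 16 CPM in La-Cer lung, against 76.9, 47.7 and 17.3 CPM in control lung (log2 fold change -2.05 ± 1.14). Cfd and Retn were at or near the control level, with log2 fold changes of 0.03 ± 1.08 and -0.19 ± 0.90, and without control replicate 1 they were 1.12 and 0.87. The median log2 difference of the members was -1.23 beside -0.05 over all genes, and -0.60 without control replicate 1.

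**Figure D5:**
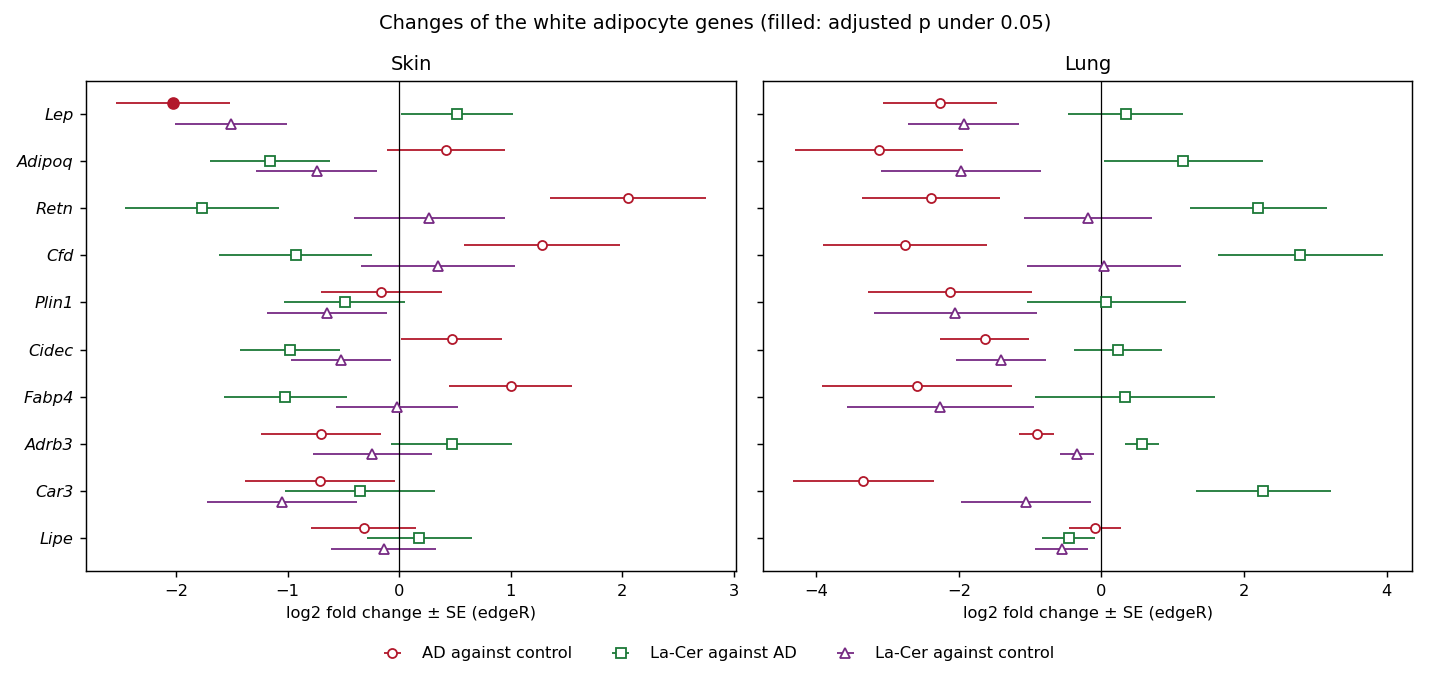
Log2 fold change ± SE (edgeR) of each member in skin (left) and lung (right) for 3 comparisons, drawn for each gene from top to bottom as AD against control (circle), La-Cer against AD (square) and La-Cer against control (triangle); a filled marker has an adjusted p under 0.05. Only Lep in AD against control skin (-2.03) is filled, and in lung all 10 AD-against-control estimates lie below 0, from -3.34 for Car3 to -0.09 for Lipe.

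Retn was the only member whose AD difference was called unlike between the tissues, and that call was not stable. The interaction of tissue with AD gave a log2 difference of 4.52 ± 1.26 between the skin and the lung change (adjusted p = 0.0273, edgeR), 1 of 10 members called against 14.7% of the 19129 genes tested. The Retn change was 2.05 in skin and -2.39 in lung, and neither passed within its tissue (adjusted p = 0.0938 and 0.208, edgeR). The call was lost without lung control replicate 1 (adjusted p = 0.101, log2 difference 3.47), lung AD replicate 3 (0.0616), skin control replicate 1 (0.0659), skin control replicate 2 (0.0556), skin AD replicate 1 (0.0504) or skin AD replicate 3 (0.0536), each by the edgeR interaction test. It was also lost without the filter on low counts (0.0906) and once the trend on length and GC was taken out (0.0514). Over its 22 alternatives the adjusted p ran from 0.00257 to 0.101 and 14 of the 22 passed. Cfd (4.14 ± 1.43, adjusted p = 0.0591, edgeR), Cidec (2.20 ± 0.81, 0.0727) and Adipoq (3.63 ± 1.34, 0.0735) did not pass. Lep, with changes of -2.03 in skin and -2.27 in lung, had a difference of 0.33 ± 0.92 (adjusted p = 0.855, edgeR), an interval too wide to say that the changes were alike. For La-Cer against AD, 0 of 10 members differed between tissues by the edgeR test (1.62% of all genes tested called; 3 of 10 at an unadjusted p under 0.05), and DESeq2 called 1 of 10; the Retn difference was -4.06 ± 1.25 (adjusted p = 0.0776, edgeR).

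Genes most like Adipoq and Lep were ranked by Pearson's r over the 9 libraries of a tissue, as a description over libraries that share groups, among 13700 genes in skin and 14140 in lung. Of genes outside the 10 members, those closest to Adipoq in skin were Klb, a co-receptor for FGF21 (r = 0.958), Ptger3, a prostaglandin receptor (0.924), Slc1a5 (0.922), Ccdc85a (0.912) and Itpr1 (0.90). Among the members, Retn ranked 23rd and Lep 3373rd in likeness to Adipoq. Skin Lep was closest to Col4a1, a basement membrane collagen (0.975), Smtn, a smooth muscle protein (0.944), Zim1 (0.935), Cep126 (0.932) and Arhgef15 (0.927), and Adipoq ranked 4857th. Col4a1 averaged 38.0 ± 8.23 CPM in AD skin and 129 ± 74.9 CPM in control skin. In lung those closest to Adipoq were Thrsp, a lipogenic nuclear protein (0.993), Aldoa (0.991), Dgat2, which makes triglyceride (0.981), Mrap (0.981) and Coq8a (0.973), while in the ranking of all genes Fabp4 was 5th and Plin1 15th. Among the genes closest to lung Lep were Fkbp1a (0.962), Mapk11 (0.949), Ap1m1 (0.944) and AW551984 (0.938), with Plin1 11th and Adipoq 45th.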

How the data were processed

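Total RNA of mouse skin and lung was extracted with a Promega kit and sequenced after SMARTER mRNA-Seq library preparation, per the labels' protocols. The authors deposited read counts per gene and FPKM values for both tissues; per the submitters' processing notes bcl2fastq 2.17.1.14 and cutadapt 1.9.1 were used and the build was GRCm38. As to aligner, counter and strandedness, nothing is stated in the labels or headers. The deposited FPKM equal the count divided by exonic size and library total, to within 0.005, so they carry no scaling between libraries and were used only to compare levels between genes.

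Counts of all genes were fitted per tissue over 9 libraries with edgeR 4.0.16 (TMM factors, filterByExpr, robust quasi-likelihood test, R 4.3.3), Benjamini-Hochberg adjustment over all genes tested and a call under 0.05; a joint fit over 18 libraries gave the interaction with tissue. Exact permutation tests went through all rearrangements in Python with NumPy 2.4.6, and SciPy 1.17.1 gave the ranks for Spearman's rho. The SE given with an edgeR log2 fold change is its absolute value divided by the square root of the quasi-likelihood F statistic. Library totals of 13472283 to 19338972 counts limit the precision of low genes.

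Each library was left out in turn, and further alternatives were a block for the replicate number, a fit restricted to the 6 libraries at hand, a length and GC trend removed, DESeq2 1.42.0, RLE size factors, and no filter. The fit was tested on simulated data. The members and gene lists were chosen with earlier results of these data known. Named genes were all members, and per list and comparison up to 3 called genes with the smallest p or the 2 most abundant ones; likeness was ranked by Pearson's r among genes averaging 1 CPM or more, leaving out predicted gene names. The labels state 3 mice per group, without mouse identities, so p-values measure the spread between these libraries. No replicate pair agreed within sampling noise (smallest chi-square per gene 5.91). A gene among those most like Lep in lung is not reported here.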

Additional observations from a re-analysis of the deposited data

Results flagged for a closer look

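Retn had an AD effect that differed between skin and lung by the edgeR interaction test, at 4.52, given here and below as the log2 effect in skin minus that in lung. Genes of the pathway and brown fat lists did so too, beside 14.7% of all genes called in the same interaction. Of 11 regulators 1 was called, Nr1h3, the liver X receptor alpha gene, at 2.55. Of the 15 droplet and lipolysis genes 4 were called: G0s2, an inhibitor of the lipase ATGL, at 3.91, Plin2 at 2.51, Mgll at 2.77 and Cidea at 5.03. Of the 19 synthesis genes 5 were called, among them Me1 at 2.47, Dgat1 at 2.29 and Agpat2 at 2.89. Of the 10 further adipokines tested 2 were called, Rarres2, which encodes chemerin, at 2.46 and Agt at 3.22, and of the 6 receptors 1, the chemerin receptor gene Cmklr1, at -1.88. Of the 11 brown fat genes 3 were called, which are Cidea, Cox8b at 5.25 and Cox7a1 at 4.09. The call was lost in 16 of 22 alternatives for Cox7a1, 14 for Cidea, 12 for Cmklr1, 9 for Agpat2, 8 for Retn and 7 for Cox8b, and in 5 or fewer for the other genes named here. The brown fat calls did not include Ucp1, almost absent from AD and control skin, and the sebaceous list also holds Cidea. In the same interaction 2 of 12 skeletal muscle, 2 of 7 cardiac muscle and 2 of 7 sebaceous genes were called, all higher in skin minus lung.

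For La-Cer against AD the interaction passed for 1 of 11 regulators, 1 of 15 droplet and lipolysis genes and 2 of 10 further adipokines, beside 1.62% of all genes called. The effects in skin minus lung were -2.59 for Nr1h3, -4.48 for G0s2, -3.65 for Agt and -2.54 for Rarres2. The calls were lost in 12 of 22 alternatives for Agt and for Rarres2, 10 for Nr1h3 and 8 for G0s2. These differences share the AD libraries with those above. No member passed there.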

How the results depend on the processing

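Counts of calls depended strongly on the setting, while the directions named below were the ones that turned. The replicate numbers did not pair the samples: same-numbered libraries correlated at -0.77 to 0.28 in skin and -0.24 to 0.36 in lung after group means were removed, with 2 and 4 of 9 pairs over 0.1. With the replicate number as a block, 0 members and 0 genes were called for AD against control skin, 0 genes for AD against control lung, 12 for La-Cer against AD lung and 0 for La-Cer against control lung; Retn turned to -0.22 and Cfd to -0.04 for La-Cer against control skin.

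DESeq2 called 2 members and 3095 genes for AD against control skin, 984 genes for La-Cer against AD skin, 67 for La-Cer against control skin, 3 members and 1492 genes for AD against control lung, 2502 genes for La-Cer against AD lung and 22 for La-Cer against control lung. In the interactions it called 4 members for AD and, for La-Cer against AD, 1 member and 2042 genes. RLE size factors gave 20 genes for AD against control lung. Without a filter 1908, 449 and 7 genes were called in the 3 skin comparisons in the same order, 134 for AD against control lung and 11 for La-Cer against control lung, with 0 members in the AD interaction and 799 genes in the La-Cer interaction. With only the 6 libraries compared, 0 members and 590 genes were called for AD against control skin, 0 genes for AD against control lung, 4034 for La-Cer against AD lung and 0 for La-Cer against control lung.

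With the length and GC trend removed, 0 members and 0 genes were called for AD against control skin, 97 genes for AD against control lung, 99 for La-Cer against AD lung and 0 members in the AD interaction. The log2 fold changes that turned were Adipoq (-0.29), Plin1 (0.21) and Lipe (0.13) for AD against control skin, Lipe (-0.18) for La-Cer against AD skin, and Retn (-0.10), Cfd (-0.03) and Fabp4 (0.20) for La-Cer against control skin. In lung they were Plin1 (-0.07) and Cidec (-0.27) for La-Cer against AD and Cfd (-0.04) for La-Cer against control, and in the AD interaction Lipe (0.28). A pseudocount of 2 CPM turned the Lep to Adipoq difference of La-Cer against control lung to 0.44. The cause of these changes was not tested.

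Leaving out 1 library at a time, members called ran from 0 to 2 for AD against control skin, 0 to 6 in the AD interaction and 0 to 1 in the La-Cer interaction. All genes called ran from 0 to 1088 for AD against control skin, 0 to 1 for La-Cer against AD skin, 0 to 992 for AD against control lung, 0 to 4972 for La-Cer against AD lung, 0 to 21 for La-Cer against control lung, 1001 to 3213 in the AD interaction and 6 to 2266 in the La-Cer interaction. Log2 fold changes that crossed 0 ran, for AD against control skin, from -0.88 to 0.33 for Plin1 and -0.19 to 0.72 for Cidec. For La-Cer against AD skin they ran from -0.97 to 0.23 for Plin1, -0.86 to 0.09 for Car3 and -0.11 to 0.90 for Lipe. For La-Cer against control skin they ran from -0.32 to 0.35 for Fabp4, -0.32 to 0.10 for Lipe, -0.87 to 0.71 for Retn, -0.44 to 0.74 for Cfd and -0.54 to 0.01 for Adrb3. For AD against control lung Lipe ran from -0.61 to 0.24. For La-Cer against AD lung they ran from -0.19 to 2.01 for Lep, -0.48 to 3.14 for Plin1, -0.15 to 1.26 for Cidec, -0.22 to 2.89 for Fabp4 and -0.80 to 0.05 for Lipe, and for La-Cer against control lung from -0.60 to 0.87 for Retn and -0.35 to 1.12 for Cfd. In the AD interaction they ran from -0.88 to 0.38 for Lipe, -0.21 to 1.99 for Lep and -0.46 to 0.63 for Adrb3, and in the La-Cer interaction from -3.70 to 0.09 for Plin1, -0.52 to 0.58 for Adrb3 and -1.55 to 0.65 for Lep. The Lep to Adipoq difference of La-Cer against control lung ran from -1.02 to 0.73. Depth limits Lep in lung, where AD replicate 1 held 1 count.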
